A study of Rattus norvegicus with 53 samples.

Results

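Peripheral blood mononuclear cells (PBMCs) of healthy Brown Norway (BN) rats were cultured with serum of other rats, and the cells' expression was read as a record of what the serum carried. The comparison described here sets PBMCs given serum of day-40, PBS-treated DRlyp/lyp rats against PBMCs given autologous BN serum, the donor's own. It uses 12 of the 53 arrays of the series, namely the 6 arrays labelled as PBS-treated DRlyp/lyp at day 40 and the autologous arrays with replicate numbers 1 to 6. They were picked by title and replicate number. That autologous replicates 1 to 6 belong with the day-40 arrays is not in the labels and was taken from the measured values.

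DRlyp/lyp rats are a lymphopenic line of the BioBreeding (BB) rat that develops spontaneous autoimmune diabetes. The PBS donors received daily intraperitoneal saline for 10 days beginning on day 30 and were bled on day 40, as the control arm of littermates treated with human recombinant interleukin-1 receptor antagonist (IL-1RA, Anakinra) at 350 ug per kg per day. All cultures shared 1 cell source, PBMCs of healthy male BN rats given as 180 days old, and each lasted 6 h with 20% of the serum or plasma in the medium. The autologous serum therefore came from an older rat of another strain, and the labels give it no saline injections. It was also the cells' own, whereas the DRlyp/lyp serum was foreign to them. Strain, age, injection and own or foreign serum cannot be told apart in this comparison. Other groups used below were 6 cultures with day-40 serum of IL-1RA-treated DRlyp/lyp rats, 4 with day-60 DRlyp/lyp serum and 4 with autologous serum (replicates 7 to 10). A further 3 had BN serum that was allogeneic, that is, of another BN rat (replicates 1 to 3). The series holds 15 allogeneic BN arrays, and the others were left out of the comparison with allogeneic serum. The labels do not set replicates 1 to 3 apart from them, and the choice was made with earlier results of these data known. The titles of the day-40 IL-1RA arrays can also be read as IL-1RA added to the culture, and the series' design text says that the rats were treated. The labels do not say whether cultures of 1 group came from separate blood donors or serum donors, so a p-value here measures the spread between these cultures, which may be technical.

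Lymphocytes and monocytes carry receptors for cytokines, microbial products and oxidised molecules, so serum that holds such mediators switches on their target genes within hours. Interleukin-1 is a central cytokine of innate inflammation: Il1b encodes its secreted form, Il1r1 the signalling receptor, Il1r2 a decoy receptor and Il1rn the natural antagonist. MHC class II molecules, under the master regulator Ciita, present peptides of extracellular proteins to CD4 T cells, and class II genes are among the strongest genetic determinants of autoimmune diabetes.

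The values were log2 expression on Affymetrix rat arrays. Markers of T and B cells were high in both groups: the T-cell receptor component Cd3g averaged 11.51 ± 0.25 (SD, n = 6) with PBS serum and 11.47 ± 0.25 with autologous serum, and the B-cell gene Ms4a1 9.69 ± 0.35 and 9.65 ± 0.22. Monocyte markers were uneven: the enzyme Lyz2 averaged 11.17 ± 1.07 and 11.09 ± 1.13, whereas Cd14 stood at 7.63 and 7.28, Cd68 at 5.90 and 5.82 and the growth factor receptor Csf1r at 5.87 and 5.81. Ranked among all genes, Lyz2 was at percentile 98.8, Cd14 at 65.7, Csf1r at 50.1 and Cd68 at 48.6. Markers of other blood elements were high too, with the platelet chemokine Pf4 at 13.54 and 13.67 and the erythroid gene Hbb at 14.03 and 14.08. The B-cell marker Cd79a and the neutrophil marker Mpo were not analysed here. The signal of the 3′ actin probe set minus that of the 5′ one, which grows as RNA degrades, was 3.52 ± 0.27 with PBS serum and 3.91 ± 0.39 with autologous serum, a gap of -0.39 (exact two-sided permutation p = 0.0736 over 924 regroupings), and its part in the results was not tested beyond a fit with it as a covariate, which called 0 probe sets. The same measure was 2.37 to 2.78 in autologous replicates 7 to 10, below the 3.20 to 4.31 of replicates 1 to 6.

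No gene passed the test between day-40 PBS serum and autologous serum. With limma's moderated test, 0 of 31042 probe sets (0%) had a Benjamini-Hochberg adjusted p under 0.05, and the smallest adjusted p was 0.943. At an unadjusted p under 0.05 there were 1615 probe sets (5.2%), with 591 higher (1.9%) and 1024 lower (3.3%). With the replicate number as a pair the smallest adjusted p was 0.352 and 0 probe sets (0%) passed, while 3442 (11.1%) had an unadjusted p under 0.05, 4.94% higher and 6.15% lower. With 1 probe set per gene, the one with the highest mean, 556 of 14217 genes (3.91%) had an unadjusted p under 0.05 without pairing and 1483 (10.4%) with it, and 549 genes were in both.

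The 95% intervals bound the mean difference between these cultures, 1 gene at a time. The median half-width of the 95% interval of a gene's log2 difference was 0.28 without pairing and 0.22 with pairing. The interval lay within -1 and 1, which is less than a 2-fold change either way, for 14026 of 14217 genes (98.7%), and within -0.5 and 0.5 for 10596 (74.5%). Differences ran from -1.11 to 0.78 with a median over genes of 0.04, and 9160 genes lay above 0 and 5057 below. In all, 4 genes differed by 1 or more, each lower with PBS serum.

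The genes with the smallest unadjusted p had mixed roles, and none of them passed. Ciita, the class II regulator, had the largest difference among genes measured higher, 0.78 (SE 0.20, 95% interval 0.36 to 1.20; limma unadjusted p = 0.00127, adjusted p = 0.943). Its levels were 9.06, 8.96, 8.26, 8.89, 8.60 and 9.19 in PBS replicates 1 to 6 and 8.69, 8.00, 8.29, 7.97, 7.87 and 7.46 in the autologous ones. PBS replicate 3 was the only pair that was not higher, and the groups overlapped in the range between 8.26 and 8.69. A second, dimmer Ciita probe set differed by -0.04 (SE 0.19), so the 2 probe sets of this gene disagree.

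RT1-DMb, the beta chain of the editor that loads peptide onto class II, read 9.98, 10.02, 9.41, 10.06, 10.08 and 9.88 with PBS serum against 9.57, 9.27, 9.48, 9.18, 9.53 and 9.05 with autologous serum. All but PBS replicate 3 lay above every autologous culture, and the difference was 0.56 (SE 0.14; limma unadjusted p = 0.000930). Dxo, a decapping and 5′ exonuclease enzyme of RNA quality control, read 8.08 to 8.83 with PBS serum and 7.49 to 7.91 with autologous serum, without overlap, a difference of 0.62 (SE 0.15; unadjusted p = 0.000665). Vsir, which encodes the inhibitory checkpoint receptor VISTA, read 8.89 to 9.66 and 8.38 to 8.82, also without overlap, a difference of 0.55 (SE 0.15). Atp5f1b, the catalytic beta subunit of ATP synthase, differed by 0.42 (SE 0.11), and Bid, a pro-apoptotic protein that links death receptors to mitochondria, by 0.41 (SE 0.12), while the dimmer Bid probe set read 0.06 (SE 0.13). Rragd, a GTPase that tells mTORC1 of amino acid supply, and Traf3ip2, the adaptor of the interleukin-17 receptor, differed by 0.50 (SE 0.14) and 0.53 (SE 0.15). Of all genes, 18 of 14217 (0.127%) had every PBS culture above every autologous one and 8 (0.0563%) had every PBS culture below.

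Among genes measured lower, Eaf2, a transcription elongation factor, had the smallest p of all, with levels of 4.27, 3.90, 4.05, 4.30, 4.11 and 3.50 with PBS serum and 4.22, 5.52, 5.67, 5.18, 4.52 and 5.32 with autologous serum. Autologous replicate 1 was as low as the PBS cultures and the other autologous cultures were above them all, and the difference was -1.06 (SE 0.22; limma unadjusted p = 0.000237, adjusted p = 0.943). With limma's array weights, which count noisy arrays less, Eaf2 was the 1 probe set called, at -1.33 (adjusted p = 0.0219). Eaf2 was dim: its PBS levels lay under the medians of the PBS arrays, 5.29 to 5.41, and the fit of brighter probe sets left it out. Myb, a transcription factor of immature blood and lymphoid cells, was lower in 6 of 6 pairs, with a difference of -0.92 (SE 0.26), and Vpreb3, a B-lineage gene tied to the pre-B-cell receptor, by -0.57 (SE 0.16) without overlap between 8.66 to 9.43 and 9.45 to 10.08. Kctd12, an auxiliary subunit of GABA-B receptors, read 9.64 to 10.25 with PBS serum and 10.30 to 10.75 with autologous serum, a difference of -0.49 (SE 0.12), but its dimmer probe set differed by -0.11 (SE 0.13). Kcnab1, a potassium channel beta subunit, Baz2b, a chromatin reader, and Sp3, a GC-box transcription factor, differed by -0.61 (SE 0.17), -0.73 (SE 0.21) and -0.28 (SE 0.07). The dimmer probe set of Kcnab1 read -0.06 (SE 0.13) and that of Baz2b -0.51 (SE 0.24).

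**Figure D1:**
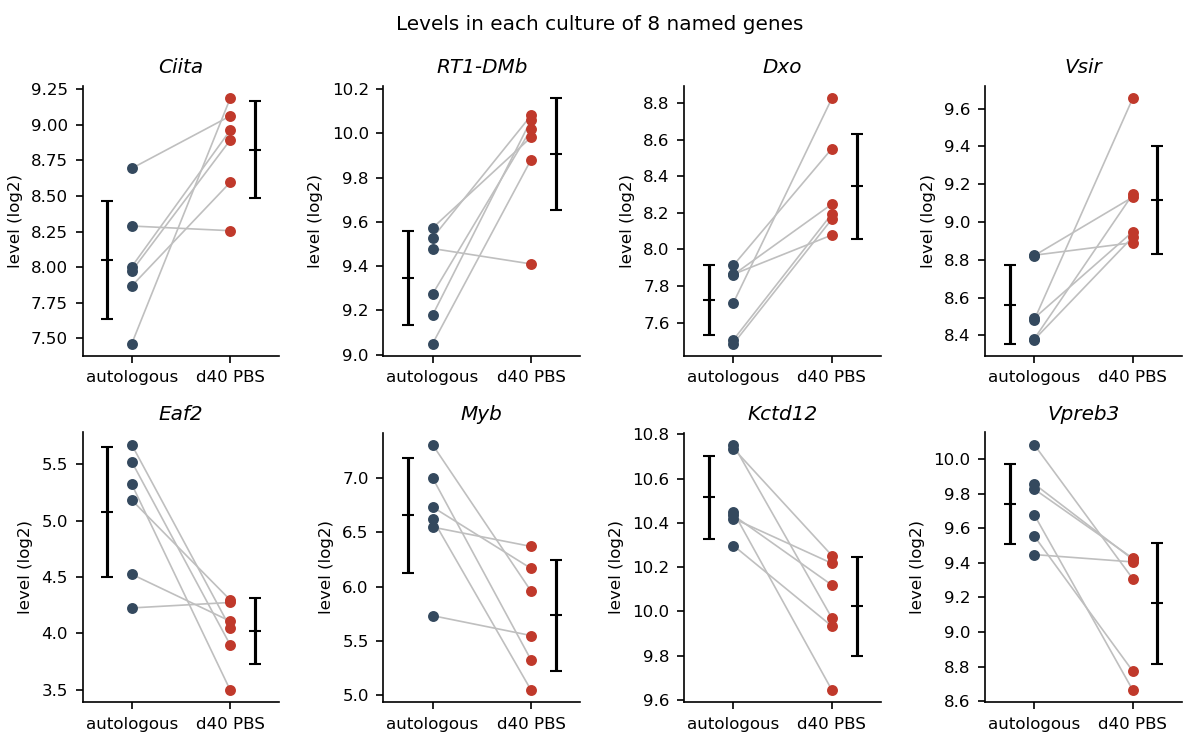
Level (log2, vertical axis) of 8 named genes in each of the 6 autologous and 6 day-40 PBS cultures; grey lines join cultures of the same replicate number, and bars show the mean ± SD. Dxo, Vsir, Kctd12 and Vpreb3 do not overlap between groups, while in Eaf2 autologous replicate 1 sits at 4.22 among the PBS cultures, and none of the 8 passed the adjusted test.

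Promoters of class II genes carry a conserved Y box, a CCAAT element bound by nuclear factor Y, close to the start site. Of the 13 measured genes of the class II list, 11 had a RefSeq promoter sequence (GRCr8, 250 bases before to 50 after the start), and 4 of the 11 held the letters CTGATTGG in a search of both strands, against 975 of 27457 promoters (3.55%) of the same length. The 4 are the alpha and beta chains of the RT1-B and RT1-D molecules, whose stretches of 40 bases on each side of the match are shown because their genes form the classical class II pair, with the match in capitals.
RT1-Ba: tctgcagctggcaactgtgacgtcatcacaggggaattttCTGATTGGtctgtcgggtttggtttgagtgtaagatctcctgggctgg
RT1-Bb: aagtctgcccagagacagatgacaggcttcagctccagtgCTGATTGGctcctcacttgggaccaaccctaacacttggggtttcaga
RT1-Da: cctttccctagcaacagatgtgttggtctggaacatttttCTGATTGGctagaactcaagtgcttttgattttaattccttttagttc
RT1-Db1: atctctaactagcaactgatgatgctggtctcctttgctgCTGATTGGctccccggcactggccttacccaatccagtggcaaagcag
The windows are chr20:4576971-4577058 on the plus strand for RT1-Ba, chr20:4604135-4604222 on the minus strand for RT1-Bb, chr20:4515323-4515410 on the plus strand for RT1-Da and chr20:4560198-4560285 on the minus strand for RT1-Db1. Read along each gene, the match begins at -46, -64, -52 and -83 from the start site. A match describes the sequence and is not evidence of binding.

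The class II list lay mostly above 0, without a gene that passed. Of its 13 measured members, 12 were higher with PBS serum, where 9160 of all 14217 genes were. The 1 lower was Marchf8, a ubiquitin ligase that removes class II from the surface, at -0.18 (SE 0.14). The median difference was 0.19 beside 0.04 over all genes, and 4 of 13 had an unadjusted p under 0.05, all higher, where 2.29% of all genes did in that direction. With pairing, 6 of 13 had one, beside 6.85% of all genes. The 4 were Ciita, RT1-DMb, RT1-DMa at 0.49 (SE 0.16; higher in 6 of 6 pairs) and RT1-Db1 at 0.34 (SE 0.13). The chains of the pair shown above read 0.18 (SE 0.09) for RT1-Ba, 0.33 (SE 0.23) for RT1-Bb and 0.17 (SE 0.12) for RT1-Da, and the invariant chain Cd74 read 0.22 (SE 0.10). The dimmer probe sets read 0.37 (SE 0.22) for RT1-Db1, 0.05 (SE 0.07) for RT1-Bb, and 0.17 to 0.32 for the other 3 of RT1-Ba. For Marchf1 the probe set used read 0.13 (SE 0.15) and the dimmer one -0.42 (SE 0.22), so they disagree. Probe sets of RT1 genes can share sequence with near-identical relatives, so values of single members are uncertain. The mean level of the list ran from 10.33 to 10.76 over PBS cultures and from 10.19 to 10.47 over autologous ones, and these ranges overlap. With all 10 autologous arrays as the reference the list's median was 0.05. The cultures with serum of IL-1RA-treated rats, compared with the same autologous arrays, had a list median of -0.0035 and a Ciita difference of 0.20.

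**Figure D2:**
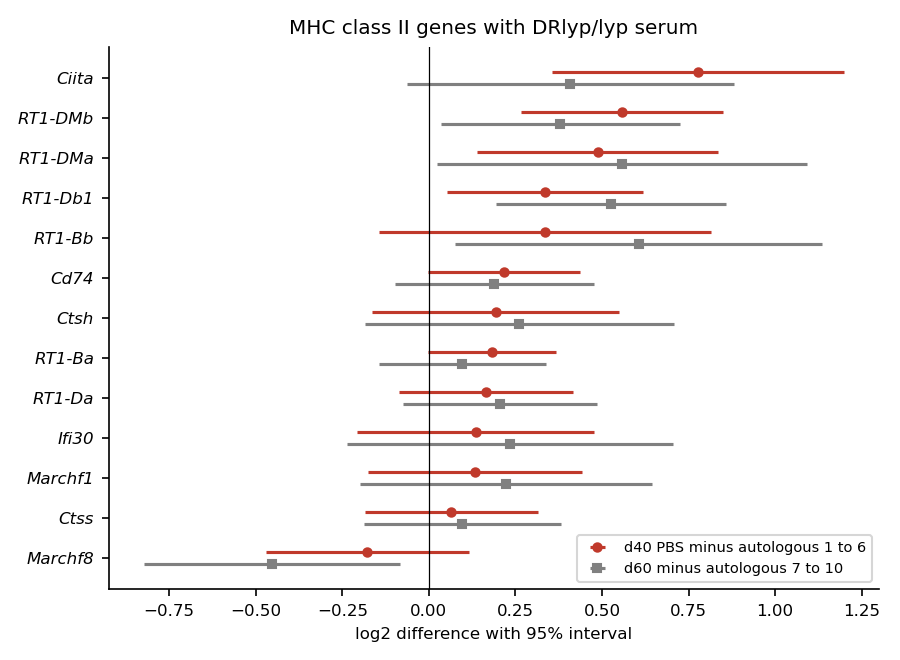
Log2 difference (horizontal axis) with its 95% interval for the 13 measured class II genes, in red for day-40 PBS serum minus autologous replicates 1 to 6 and in grey for day-60 serum minus autologous replicates 7 to 10. In red, 12 of 13 lie above 0 and the intervals of Ciita, RT1-DMb, RT1-DMa and RT1-Db1 leave it out; none passed the adjusted test.

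The 40 gene lists gave no call in any member. Among their 818 genes, 35 (4.28%) had an unadjusted p under 0.05, close to the 3.91% of all genes, and 33 of 40 medians were above 0, where the median of all genes was 0.04. List medians ran from -0.25 to 0.31. The highest belonged to the genes that led at day 60, a list taken from these data, and it was -0.003 with all 10 autologous arrays as the reference. Because the arrays measured bulk RNA, fewer cells of a type and less RNA per cell cannot be told apart in any of them.

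Platelet genes had the lowest median, -0.25. Of 17 measured, 14 were lower with PBS serum, beside 5057 of 14217 genes. Tubb1, the platelet-specific beta-tubulin, was the 1 with an unadjusted p under 0.05 (beside 1.62% of genes), at -0.43 (SE 0.17). It read 11.27 to 12.45 against 11.92 to 12.55. P2ry12, the ADP receptor that clopidogrel blocks, read -0.44 (SE 0.25), Gp9, a part of the von Willebrand factor receptor, -0.43 (SE 0.24), and Pf4 -0.13 (SE 0.16). The dimmer P2ry12 probe set, which the counts leave out, read -0.64 (SE 0.24; limma unadjusted p = 0.0159). With pairing, 8 of 17 had an unadjusted p under 0.05, all lower, beside 3.58% of genes. The list's median was -0.16 without PBS replicate 1, -0.14 without autologous replicate 5 and -0.41 without autologous replicate 1, and the list's mean level ran from 8.68 to 9.49 over the PBS cultures and from 8.74 to 9.74 over the autologous ones. Against allogeneic BN replicates 1 to 3, the median with PBS serum was 0.17, that is, above 0. Allogeneic minus autologous serum had a list median of -0.39, and serum of IL-1RA-treated rats minus autologous serum one of -0.14.

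The median of the T-cell list was 0.09, or 0.29 with all 10 autologous arrays. Of 20 measured, 3 had an unadjusted p under 0.05 in the higher direction (beside 2.29% of genes) and 1 in the lower (1.62%), and with pairing 7 and 1 did (6.85% and 3.58%). The 3 were Cd3e, Cd3d and Lck, parts of the T-cell receptor complex and its proximal kinase, at 0.43 (SE 0.14), 0.39 (SE 0.18) and 0.37 (SE 0.13), each higher in 6 of 6 pairs, while Cd3g and Cd247 of the same receptor complex read 0.04 (SE 0.13) and -0.04 (SE 0.24). The dimmer probe sets read 0.66 (SE 0.36) for Cd3e and 0.22 (SE 0.26) for Cd247. Satb1, a chromatin organiser of T cells, was lower at -0.20 (SE 0.08). B-cell genes had a median of 0.15. Of 14 measured, 2 were higher and 2 lower at an unadjusted p under 0.05 (beside 2.29% and 1.62% of genes). With pairing these counts were 4 and 3 (beside 6.85% and 3.58%). Pou2af1, a B-cell coactivator, and the low-affinity IgE receptor Fcer2 read 0.35 (SE 0.13) and 0.36 (SE 0.16), while the early B-lineage genes Vpreb3 and Ebf1 read -0.57 (SE 0.16) and -0.45 (SE 0.16). Ebf1 was lower in 6 of 6 pairs, and the second Fcer2 probe set read 0.06 (SE 0.09).

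Interferon-response genes were higher in 25 of 30, beside 9160 of 14217 genes, with a median of 0.15. Of these 30, 0 had an unadjusted p under 0.05 without pairing (beside 3.91% of genes) and 7, all higher, with it (beside 6.85%). With all 10 autologous arrays the median was 0.06. Psmb8, an immunoproteasome subunit, read 0.32 (SE 0.17), and Irf1, a driver of interferon targets, 0.26 (SE 0.17) with all 6 pairs higher. Immediate early genes had a median of -0.13, with 19 of 30 lower, beside 5057 of 14217 genes. But their median was -0.03 with the actin measure as a covariate and 0.01 with all 10 autologous arrays. Monocyte genes had a median of 0.04, neutrophil genes 0.09, inflammatory cytokines 0.02 with 0 of 25 at an unadjusted p under 0.05 in either fit, and CC chemokines 0.03. With all 10 autologous arrays these 4 medians were below 0, at -0.23, -0.13, -0.18 and -0.20. That reference adds replicates 7 to 10, the controls of the day-60 cultures, whose actin measure was lower, and the part of this was not tested. Foxo1, a transcription factor that insulin signalling holds out of the nucleus, had a difference of -0.73 (SE 0.26), and its 2 dimmer probe sets read -0.17 (SE 0.14) and 0.07 (SE 0.08).

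**Figure D3:**
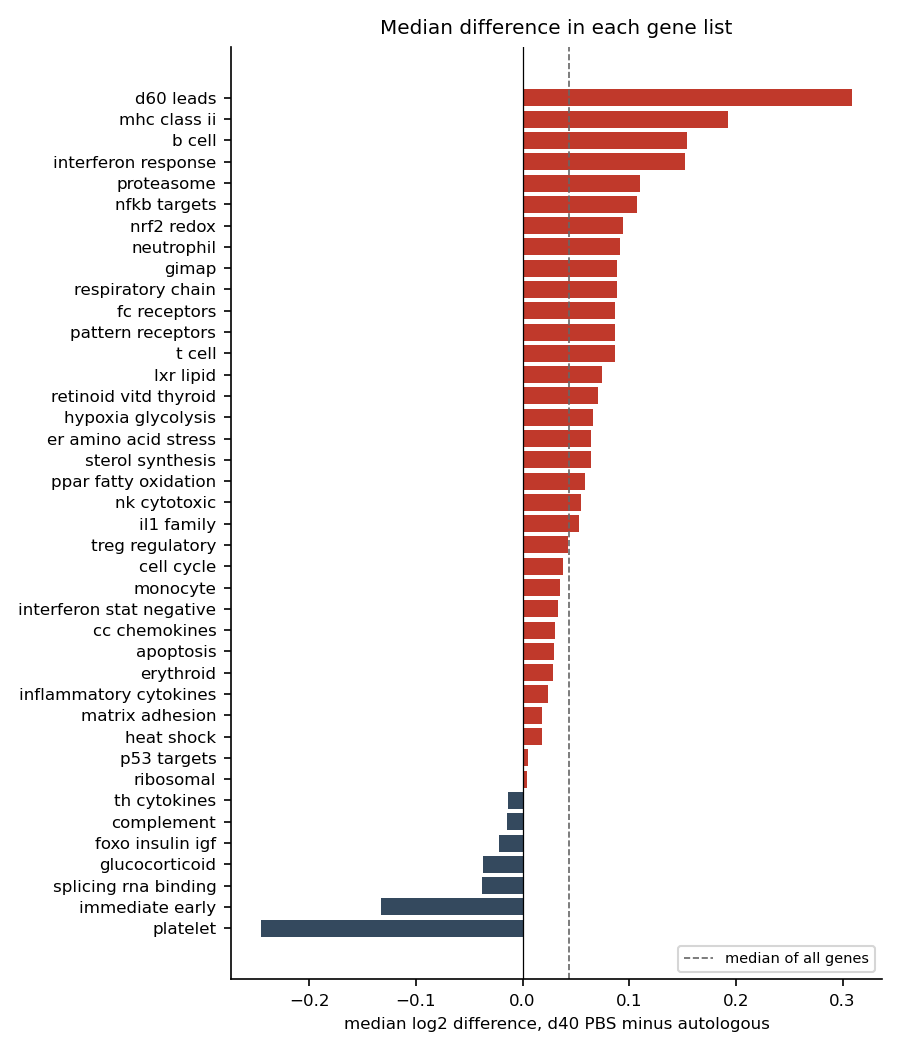
Median log2 difference (horizontal axis), day-40 PBS serum minus autologous serum, for each of 40 gene lists (rows), with the median of all genes, 0.04, as a dashed line. Platelet genes are lowest at -0.25, immediate early genes next at -0.13, and the list of day-60 leading genes is highest at 0.31; no member of any list passed.

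In the interleukin-1 family, 0 of 18 measured members passed, and 1 of 18, the kinase Irak4 at -0.27 (SE 0.12), had an unadjusted p under 0.05 without pairing, beside 3.91% of genes. With pairing, 2 were higher and 3 lower at that threshold, beside 6.85% and 3.58%. Il1b read 11.49, 7.64, 9.83, 8.68, 8.08 and 8.97 in PBS replicates 1 to 6 and 11.67, 7.14, 9.08, 9.06, 7.36 and 8.31 in the autologous ones. In both sera number 1 was highest and number 2 lowest, and the means by number spanned 4.19 log2 units. The difference between sera was 0.34 with an SE of 0.71 unpaired and 0.15 paired (limma unadjusted p = 0.632 and 0.0440, paired adjusted p = 0.437). Il1b was higher in 4 of 6 pairs. Il1r2, the decoy receptor, read 10.21, 4.44, 7.72, 7.02, 6.27 and 7.10 with PBS serum and 11.46, 5.30, 7.99, 7.71, 6.40 and 7.14 with autologous serum. It was lower with PBS serum in 6 of 6 pairs, by -0.54 (SE 0.92 unpaired, 0.15 paired; limma unadjusted p = 0.567 and 0.00407, paired adjusted p = 0.352). The unpaired values depend on the cultures of number 1: without PBS replicate 1 the Il1b difference was -0.13, and without autologous replicate 1 the Il1r2 difference was 0.22, whereas leaving out the whole pair gave 0.45 and -0.40. Il1rn read -0.07 (SE 0.14), Il1r1 -0.10 (SE 0.10) and Il18 -0.23 (SE 0.24), the last lower in 6 of 6 pairs. In cultures with serum of IL-1RA-treated rats, Il1b read 11.61, 7.31, 9.40, 8.47, 7.43 and 8.42, again highest in number 1 and lowest in number 2.

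The replicate number separated these cultures where the serum did not. A limma F test of the 6 numbers with serum as a term, chosen after the values were seen, called 3504 of 31042 probe sets (11.3%) and 2067 of 14217 genes (14.5%) at an adjusted p under 0.05. Number 1 held the highest mean in 464 of the 2067 genes and the lowest in 1434. Without number 1, 53 probe sets were called, so most of the calls rest on the 2 cultures of that number. With the 6 IL-1RA cultures added, 9186 probe sets were called. The arrays of numbers 1 and 5 also differed as a whole. With autologous, PBS and IL-1RA serum, the median log2 signal of an array was 5.39 to 5.41 in number 1 and 5.36 to 5.40 in number 5. In the other numbers it was 5.29 to 5.35. The SD within an array was 2.13 to 2.20, 2.21 to 2.24 and 2.26 to 2.32 in turn. The part of this was not tested beyond repeating the count with arrays centred or normalised again. What the number stands for is not given in the labels.

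Number 1 was high in several genes of neutrophils and monocytes, named after their values were seen. The mean of both sera was 9.18 for S100a9, a calcium-binding alarmin of neutrophils and monocytes, against 4.52 to 7.48 in the other numbers (adjusted p = 9.17e-05, limma F test). Steap4, a metalloreductase of inflamed tissue, stood at 8.00 against 2.60 to 4.14, and Lyz2 at 13.05 against 10.07 to 11.62. Csf3r, the receptor of granulocyte colony-stimulating factor, stood at 7.27 against 3.62 to 4.86, and Clec7a, the beta-glucan receptor Dectin-1, at 10.53 against 6.14 to 8.30. The calls by number were spread over many lists, beside 14.5% of all genes: 12 of 17 erythroid genes, 17 of 35 proteasome and 17 of 35 ribosomal genes, 8 of 17 platelet genes, 14 of 30 interferon-response genes, 7 of 15 neutrophil genes, 8 of 18 interleukin-1 genes and 9 of 24 monocyte genes. In the class II list, 1 of 13 was called. Alas2, the first enzyme of heme synthesis in red cell precursors, ran from 10.50 in number 5 to 13.29 in number 1. The mean level of the neutrophil list was 5.84 in number 1 and 4.37 to 5.04 in the others, that of the T-cell list 8.88 and 9.11 to 9.41, and the part of cell composition in the number effect was not tested. Of the 24 genes still called without number 1, 17 had their highest or lowest mean among the remaining numbers at number 5. Among the 24 were Il1r2, Il1b, Steap4, S100a8 and S100a9, and also the red-cell genes Alas2 and Rhd.

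**Figure D4:**
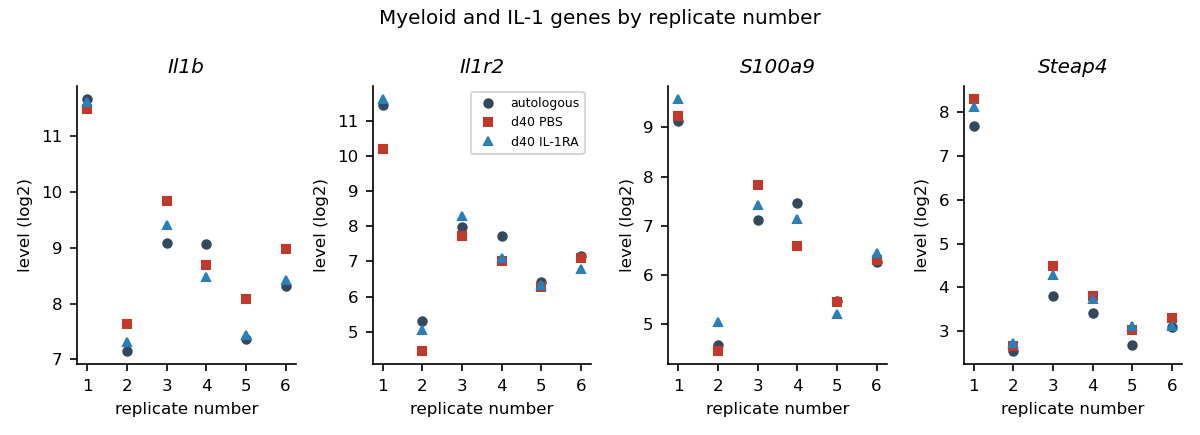
Level (log2, vertical axis) of Il1b, Il1r2, S100a9 and Steap4 by replicate number (horizontal axis) in cultures with autologous, day-40 PBS and day-40 IL-1RA serum, 1 point per culture. Number 1 is highest in every panel and number 2 lowest, as for Il1b at 11.49 to 11.67 and 7.14 to 7.64.

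The day-60 cultures share no array with the day-40 comparison. In a model of the 20 arrays, day-60 DRlyp/lyp serum against autologous replicates 7 to 10 called 25 of 31042 probe sets (0.0805%), 18 higher (0.058%) and 7 lower (0.0226%). They represented 16 genes (0.113%), 11 higher (0.0774%) and 5 lower (0.0352%). Of the 11 higher genes, 9 were also higher at day 40, beside 9160 of 14217 genes, with a median of 0.35 there beside 1.70 at day 60. At day 40, 0 of 11 had an unadjusted p under 0.05 without pairing and 8 of 11 with it, where 2.29% and 6.85% of all genes did. All 5 lower genes were lower at day 40 with an unadjusted p under 0.05, where 1.62% of genes were, with a median of -0.46 beside -1.31. These 5, Kcnab1, Arhgap28, Dennd2c, Kctd12 and Cracd, did not pass the adjusted test at day 40.

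The genes called at day 60 included oxidant-defence enzymes, a chemokine and matrix genes. Akr1b8, an aldo-keto reductase, read 9.22, 8.72, 8.26 and 8.33 in day-60 cultures and 6.40, 7.05, 5.25 and 4.88 with their autologous serum, a difference of 2.74 (SE 0.36; limma adjusted p = 0.00221). At day 40 it read 5.96, 5.72, 6.11, 5.56, 5.54 and 6.24 against 6.11, 4.94, 5.96, 5.63, 4.94 and 5.21, which overlap, a difference of 0.39 (SE 0.21). Ccl2, the monocyte-attracting chemokine, differed by 2.20 (SE 0.36) at day 60 and by -0.28 (SE 0.25) at day 40, where its PBS cultures read 4.05 to 4.46. Nqo1, a quinone reductase and standard target of the oxidant sensor NRF2, differed by 1.76 and 0.38 (SE 0.23), with all 6 pairs higher at day 40, and Hmox1, which degrades heme, by 1.32 and 0.16 (SE 0.16). The matrix genes Fn1, Vcan and Tgfbi differed by 1.91, 1.74 and 1.70 at day 60 and by 0.40 (SE 0.21), 0.35 (SE 0.24) and 0.45 (SE 0.25) at day 40. The pore-forming protein Mpeg1 differed by 1.56 and 0.43 (SE 0.23), and the endotoxin co-receptor Cd14, which was not called at day 60 (adjusted p = 0.0570), by 1.74 and 0.36 (SE 0.29).

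For 16 of these 16 genes the 95% interval at day 40 left out the size seen at day 60, though that size carries its own error and was selected for being large. The test of the difference between the day-40 and day-60 effects, made over all probe sets, called 0 of 31042 (0%), with a smallest adjusted p of 0.358 and 1798 probe sets (5.79%) at an unadjusted p under 0.05. Ccl2 and Akr1b8 came closest, at -2.47 (SE 0.47; limma adjusted p = 0.358) and -2.34 (SE 0.46; adjusted p = 0.359). Without autologous replicate 8, which held the highest Akr1b8 and Ccl2 of its group, 5 probe sets were called, among them Ccl2 at -2.83 and Akr1b8 at -2.73 (adjusted p = 0.0160 for both). Donor age, saline injection and the set of arrays differ together between the day-40 and day-60 cultures and cannot be told apart.

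**Figure D5:**
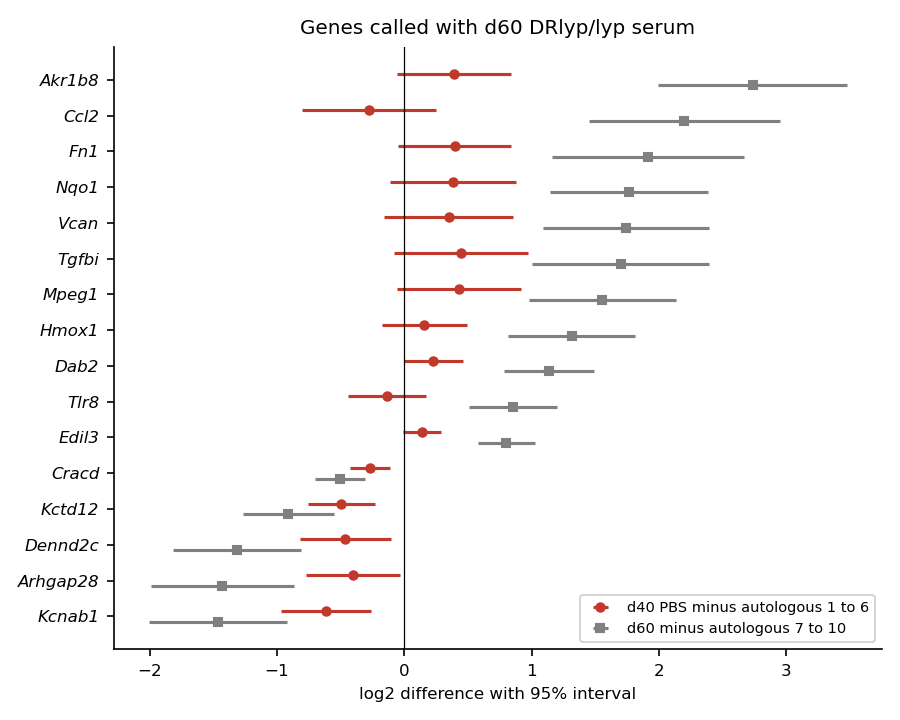
Log2 difference (horizontal axis) with its 95% interval for the 16 genes called with day-60 DRlyp/lyp serum, in grey at day 60 (4 against 4 arrays) and in red at day 40 with PBS serum (6 against 6 arrays). Akr1b8 stands at 2.74 and 0.39 and Ccl2 at 2.20 and -0.28, while the 5 genes lower at day 60 also lie below 0 at day 40.

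Against allogeneic BN replicates 1 to 3, of the 15 in the series, the day-40 PBS serum called 0 of 31042 probe sets (0%; smallest adjusted p 0.184). At an unadjusted p under 0.05 there were 2662 (8.58%). The smallest p among named loci belonged to Id3, an inhibitor of basic helix-loop-helix factors, at 1.77 (SE 0.31), RT1-Db1 at 0.93 (SE 0.18) and, with others between them, the matrix gene Fn1 at 1.06 (SE 0.23). For these genes in turn, allogeneic minus autologous serum was -1.34, -0.59 and -0.67, and PBS minus autologous serum 0.43, 0.34 and 0.40. Without allogeneic replicate 2, whose actin measure was 0.76, 1 probe set was called, 1 of those of Lnx1, at -1.09 (limma adjusted p = 0.0347), while the Lnx1 probe set with the highest mean read -0.0049. The class II list had a median of 0.37 and Ciita a difference of 0.54 in this comparison. Serum of the IL-1RA-treated littermates against the same autologous arrays also called 0 of 31042 probe sets (0%), with 424 (1.37%) at an unadjusted p under 0.05. Because this comparison shares its controls with the PBS one, values are given side by side only. They were 0.28 beside 0.62 for Dxo, 0.06 beside 0.56 for RT1-DMb, 0.19 beside 0.55 for Vsir, -0.56 beside -1.06 for Eaf2 and -0.48 beside -0.92 for Myb. These genes were named for their PBS differences, so smaller values with the other serum can come from that choice. The list of day-60 leading genes had a median of 0.33 with IL-1RA serum beside 0.31 with PBS serum.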

How the data were processed

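The deposited values were log2 signals that the authors made from Affymetrix rat arrays with RMA in Partek 6.2, per the submitters' processing notes; RMA normalises arrays together. Arrays have no read depth, and their number sets the precision. Of 31099 probe sets, 57 controls were left out. Of the rest, 20826 matched 1 gene symbol, 436 matched more than 1, and 9780 were unnamed here; each gene was represented by its brightest probe set (53 arrays averaged). The comparison was fitted with limma 3.58.1 in R 4.3.3 (moderated variances with a trend, 95% intervals, adjustment over 31042 probe sets), unpaired and with the replicate number as a block, after testing on simulated data. The members, the 40 gene lists and the tests were chosen with earlier results of these data known. Named genes were the 14 with the smallest p in each direction, up to 2 per list, the interleukin-1 genes and the day-60 leading genes, 113 in all; other names were chosen after their values were seen. Figures used Python and matplotlib.

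Residuals of cultures with the same number correlated at 0.0514 to 0.783 over probe sets and at 0.101 to 0.844 over genes, against a minimum of 0.1 and a mean of -0.0575 for other numbers over probe sets. A culture matched its own number best in 3 of 6 cases in each group. The pairing was therefore treated as unsettled and both fits are given. The highest correlation between any pair of arrays was 0.996.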

Additional observations from a re-analysis of the deposited data

Results flagged for a closer look

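Among 226 sets of 6 cultures (113 named genes in 2 groups), 10 (4.42%) held a culture far from the others by Dixon's criterion, about the 1 in 20 that chance gives. With PBS serum these were RT1-DMb in replicate 3 at 9.41 (nearest 9.88), Vsir and RT1-T24-3 in replicate 6 at 9.66 and 6.91, C1qa in replicate 5 at 4.83 and Il1rn in replicate 1 at 4.90. With autologous serum these were Cxcr4 and Rela in replicate 4 at 12.98 and 9.65, and Cxcr1, Rasd1 and Psmb5 in replicate 1 at 5.04, 6.37 and 10.00. Number 1 held 4 of the 10.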

How the results depend on the processing

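The count of 0 probe sets between day-40 PBS and autologous serum held under a second quantile normalisation, median centring, dim probe sets left out, variances without a trend, the actin covariate, all 53 arrays in 1 model, all 10 autologous arrays as reference, 1 probe set per gene, the replicate block and leaving out each array or pair (lowest and highest value 0). With array weights it was 1. The block changed no call. Against allogeneic serum the count was 0 to 1 on leaving out single arrays, and for the day-40 minus day-60 effects 0 to 5. For the replicate number it was 53 to 5199 (2298 without number 2) and 9186 with IL-1RA cultures added. Of 113 named genes, 88 kept their sign throughout, and no gene that changed sign had passed. With all 10 autologous arrays as reference the values that turned were Il12a -0.016, Cxcr3 -0.24, Cxcr1 -0.077, Fcnb -0.15, Ncr3 -0.12, Maf 0.27, Aldh1a1 -0.0089, Hsf2 0.044, Hsp90ab1 0.048, Abcg5 -0.00029, Dhrs3 -0.0026, Ccnb2 -0.21, Bik -0.15, Gimap1 0.15, C1qa -0.13, Hnrnpa1 0.35, Sf3b1 0.20, Dab2 -0.13, Hmox1 -0.18, Tnfsf13 -0.16 and Clec12a -0.30. With the actin covariate Xk was 0.081 and Clec12a -0.040. On leaving out single arrays Il1b ranged from -0.13 to 0.92, Il1rn from -0.15 to 0.043, Il1r2 from -1.16 to 0.22 and Clec12a from -0.13 to 0.17, and with the block but without pair 5 Clec12a was -0.048. Medians of the 40 lists moved by over 1 SD in 21 cases, 17 of them with all 10 autologous arrays as the reference. The cause was not tested. The 6 arrays a group limit the precision.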
